A study of Rattus norvegicus with 4 samples.

Results

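The genes described here are 10 components of transforming growth factor beta (TGF-beta) signalling in neonatal rat cardiomyocytes, namely the ligands Tgfb1, Tgfb2 and Tgfb3, the receptors Tgfbr1, Tgfbr2 and Tgfbr3, and the signalling proteins Smad3, Smad4, Smad6 and Smad7. They were taken by symbol from the deposited table, where they fill 11 of 15731 rows because Tgfbr1 is listed under 2 Ensembl identifiers. Ventricular cardiomyocytes of wild type Wistar rats at postnatal day 1 (day 0 in another part of the labels) were transfected with a synthetic mimic of a human miRNA, which was hsa-miR-25-3p, hsa-miR-93-5p or hsa-miR-106b-5p, or with the worm miRNA cel-miR-67, the control. RNA was collected 72 h later, at a mimic dose that the labels give as 25 nM in one place and as 25 mM in another. The cells had been plated briefly on plastic beforehand and the cells still floating were kept, so that all 4 cultures were enriched in cardiomyocytes and not pure. Each mimic gave 1 library, so none of the differences below has a replicate check and no p-value is given.

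TGF-beta ligands are secreted in a latent form that is held in the extracellular matrix. An active ligand dimer binds TGFBR2, which recruits and phosphorylates TGFBR1, and TGFBR1 then phosphorylates Smad2 and Smad3, which join Smad4 and enter the nucleus. Smad7 and Smad6 are inhibitory Smads that act back on the receptors, and both are themselves induced by the pathway family. In the heart the pathway is best known for activating fibroblasts and for matrix deposition. The genomic cluster that encodes the 3 miRNAs has been reported to target Tgfbr2 and Smad7, and the question addressed by these libraries is how the transcripts of the pathway stood with each mimic of the cluster.

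A miRNA recognises its targets mainly through its seed, bases 2 to 8 from the 5′ end, which pairs with sites in 3′ untranslated regions. The rat counterparts of the 3 mimics are shown from RefSeq because 2 of them share a seed and the other does not, with the seed in capitals.
rno-miR-106b-5p: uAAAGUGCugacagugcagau
rno-miR-93-5p: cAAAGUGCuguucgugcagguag
rno-miR-25-3p: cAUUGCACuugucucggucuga
All 3 lie on the minus strand of chromosome 12 of the GRCr8 build, within the span of the gene Mcm7. Their positions there are chr12:22157103-22157123, chr12:22156894-22156916 and chr12:22156652-22156673 in the same order. miR-106b and miR-93 are identical at 16 of 21 positions counted from the 5′ end, and at all 7 seed positions. miR-25 shares 3 of the 7 seed positions with each of them. Among 693 mature rat miRNAs in the RefSeq table, the seed of miR-106b and miR-93 is also that of miR-17-5p, miR-20a-5p and miR-20b-5p, and the seed of miR-25 is also that of miR-32-5p, miR-363-3p, miR-92a-3p and miR-92b-3p.

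The deposited values are RPKM, in which the reads of a gene are scaled to its length and to the size of the library. A gene was counted as tested, with no statistical test implied, where its RPKM was above 1.0 in both libraries compared, and was called higher or lower where the ratio of RPKM values passed 1.3-fold. The whole reads behind the RPKM values were recovered and gave 95% exact (Clopper-Pearson) intervals for each ratio, which cover counting error only and leave out the spread between cultures. The library sizes behind the values ranged from 22674410 reads in the control to 29749467 with miR-106b, and 60.4% to 66.9% of these reads fell on the listed genes. All 8 cardiomyocyte markers examined were above 1.0 RPKM in every library. Their summed level relative to the control was 0.954 for miR-106b, 0.929 for miR-93 and 0.609 for miR-25. The same ratio was 0.780, 0.901 and 0.411 for 10 fibroblast markers and 0.980, 0.739 and 2.63 for 6 smooth muscle and pericyte markers. Such sums follow the most abundant markers. The median log2 ratio of the tested fibroblast markers was -0.37, -0.29 and -0.71. That of the tested smooth muscle and pericyte markers was -0.36, -0.41 and 1.21. With miR-106b, for example, Cnn1 was higher (0.53) and Myh11 lower (-0.86). Endothelial markers (6, summing to between 4.04 and 5.32 RPKM) and macrophage markers (6, between 3.92 and 8.56 RPKM) were scarce in every library, although none was at 0.

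Tgfb2 and Tgfbr2 were lower with miR-106b and with miR-93 than with the control, and these were the only members called lower in a comparison with cel-miR-67. With miR-25 neither was called, and Smad6 and Smad7 were called higher, although Tgfb2 lay so near the cutoff that it was also called higher with miR-25 when ratios were centred on the median tested gene (log2 ratio 0.38). With miR-106b, 2 of 10 tested rows were called lower, against 12.7% of all tested genes, and 0 higher, against 11.9%. With miR-93, 2 of 10 were lower, against 15.6% of all tested genes, and 2 higher, both of them rows of Tgfbr1, against 15.1%. With miR-25, 0 of 10 were lower, against 22.6% of all tested genes, and 2 higher, against 19.3%. Counts out of 10 rows are too small to be read as high or low against those shares. The account that follows is therefore one of single transcripts and of the size of their differences. The median log2 ratio of the tested rows was -0.13 for miR-106b, 0.18 for miR-93 and 0.26 for miR-25, beside 0.00, 0.00 and -0.01 over all tested genes. All 3 comparisons share the control library, so a chance deviation of a gene there would appear in each of them.

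**Figure D1:**
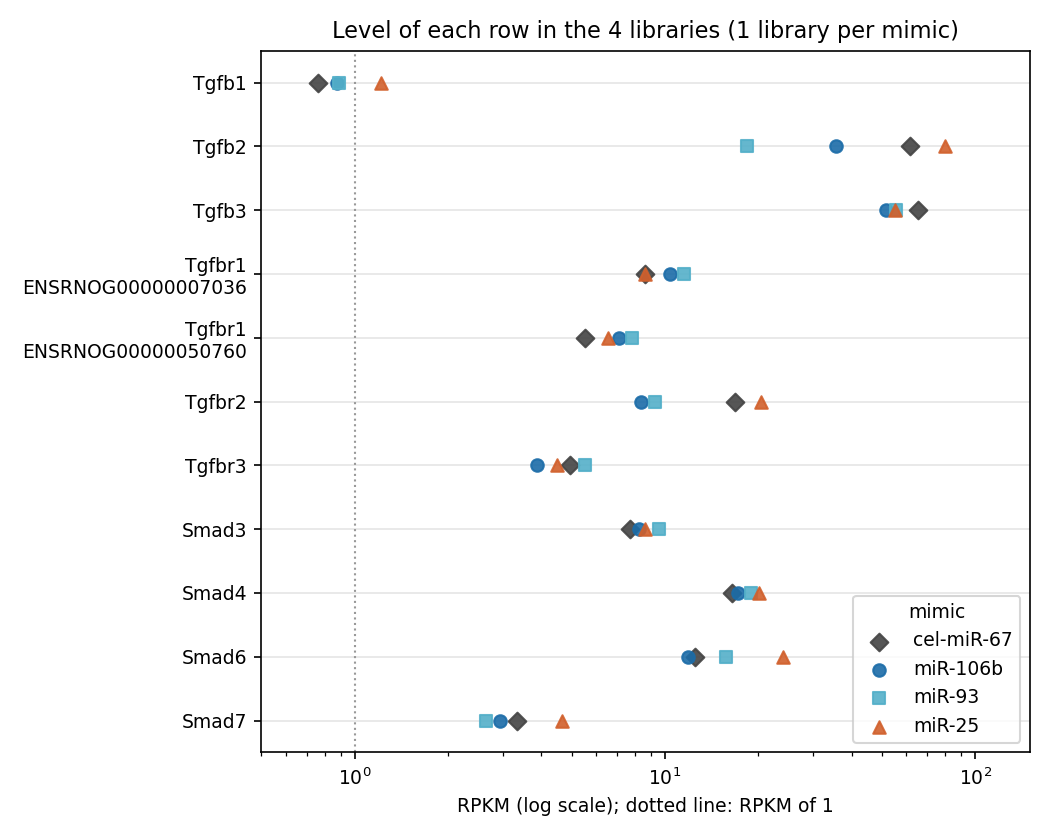
RPKM (log axis) of the 11 rows in the control library and in the 3 mimic libraries, with 1 point for each library. Tgfb2 spans from 18.3 to 79.9 RPKM, while Smad4 stays between 16.4 and 20.1, and Tgfb1 lies near the dotted line at 1 RPKM.

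Tgfb2 and Tgfb3 supplied nearly all ligand transcript. Tgfb2 (ENSRNOG00000002418), the ligand needed for heart valve and septum formation in the embryo, stood at 35.7 RPKM in the miR-106b library, 18.3 with miR-93, 79.9 with miR-25 and 61.8 in the control. Its levels were widely spaced and resulted from 2421 to 10527 reads, so that counting error was small beside the gaps. With miR-93 it was at 29.7% of the control level (log2 ratio -1.75, 95% exact interval -1.82 to -1.69), and with miR-106b at 57.7% (-0.79, -0.85 to -0.74). With miR-25 the ratio was 1.29-fold, just inside the cutoff (log2 ratio 0.37, 0.33 to 0.41). Because these cultures held several cell types, fewer cells of a type and less RNA per cell cannot be told apart, for this gene or for any other below.

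Tgfb3 (ENSRNOG00000009867), a ligand also needed for closure of the palate, was at 51.8, 55.4, 55.1 and 65.4 RPKM in the same order, ending with the control. It was highest in the control, and the log2 ratios of -0.34, -0.24 and -0.25 did not pass the cutoff. The 3 mimic libraries differed from each other by at most 0.10 on the log2 scale for Tgfb3. Tgfb1 (ENSRNOG00000020652), the ligand most often tied to fibrosis, was scarce at 0.880, 0.890, 1.22 and 0.763 RPKM, from 56, 52, 71 and 37 reads. Its level was below 1.0 in the control and so it was not tested, and its interval with miR-25 (log2 ratio 0.67, 0.08 to 1.29) was wide.

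The make-up of the ligand transcripts therefore shifted through Tgfb2. Tgfb2 was 40.4% of the summed ligand RPKM in the miR-106b library and 24.6% in that of miR-93, beside 58.7% with miR-25 and 48.3% in the control. The summed level was 88.3, 74.7, 136 and 128 RPKM in the same order. Within a library, Tgfb2 per Tgfb3 was 0.689 (0.661 to 0.718), 0.331 (0.314 to 0.348), 1.45 (1.4 to 1.5) and 0.946 (0.909 to 0.984), and none of these 4 intervals overlapped another. These ratios compare genes of the same library and do not depend on how the library was scaled.

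Tgfbr2 (ENSRNOG00000013265), the receptor that binds the ligand and starts signalling, was the other member lower with both seed-sharing mimics. It stood at 8.36 RPKM in the miR-106b library, 9.27 with miR-93, 20.4 with miR-25 and 16.8 in the control, from 692, 705, 1549 and 1063 reads. The miR-106b and miR-93 libraries lay close together and apart from the other pair. The level was 49.6% of the control with miR-106b (log2 ratio -1.01, -1.15 to -0.87) and 55.1% with miR-93 (-0.86, -1.0 to -0.72). With miR-25 it was 1.21-fold the control (0.28, 0.16 to 0.39), within the cutoff.

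Tgfbr1 encodes the receptor kinase that phosphorylates Smad2 and Smad3, and the RefSeq table lists it as 1 gene where the deposited table has 2 rows. The row ENSRNOG00000007036 was at 10.4, 11.5, 8.65 and 8.64 RPKM in the same order, and the row ENSRNOG00000050760 at 7.12, 7.84, 6.56 and 5.53. Both rows were highest with miR-93 and next highest with miR-106b. Their log2 ratios to the control were 0.42 (0.31 to 0.52) and 0.51 (0.22 to 0.79) with miR-93, both called higher, and 0.27 (0.17 to 0.38) and 0.37 (0.08 to 0.66) with miR-106b, neither called. With miR-25 the values were 0.00 (-0.11 to 0.11) and 0.25 (-0.05 to 0.55). How reads shared by the rows were assigned is not given in the sources used here, so the split between them is uncertain.

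Tgfbr2 and Tgfbr1 thus lay on opposite sides of the control with miR-106b and with miR-93. Tgfbr2 per Tgfbr1 (ENSRNOG00000007036) was 0.802 (0.734 to 0.875) with miR-106b and 0.804 (0.736 to 0.876) with miR-93, against 1.95 (1.79 to 2.12) in the control and 2.36 (2.20 to 2.54) with miR-25. Of these rows, Tgfbr2 was the more abundant per length in the control and miR-25 libraries, and ENSRNOG00000007036 in the miR-106b and miR-93 libraries. The other Tgfbr1 row, ENSRNOG00000050760, was below Tgfbr2 in every library. It was at 7.12 and 7.84 RPKM with miR-106b and miR-93, against 8.36 and 9.27 for Tgfbr2. Which receptor transcript was the more abundant with these mimics therefore depends on the row.

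Tgfbr3 (ENSRNOG00000002093) encodes betaglycan, a co-receptor without kinase activity that presents ligand, TGF-beta 2 above all, to TGFBR2. It was at 3.86 RPKM in the miR-106b library, 5.52 with miR-93, 4.47 with miR-25 and 4.94 in the control. The seed-sharing mimics had the lowest and the highest level, with the control between them. No ratio to the control passed 1.3-fold, the farthest being that of miR-106b (log2 ratio -0.36, -0.51 to -0.20). Relative to Tgfbr2 it was 0.462, 0.596 and 0.219 with the mimics in the same order and 0.293 in the control.

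**Figure D2:**
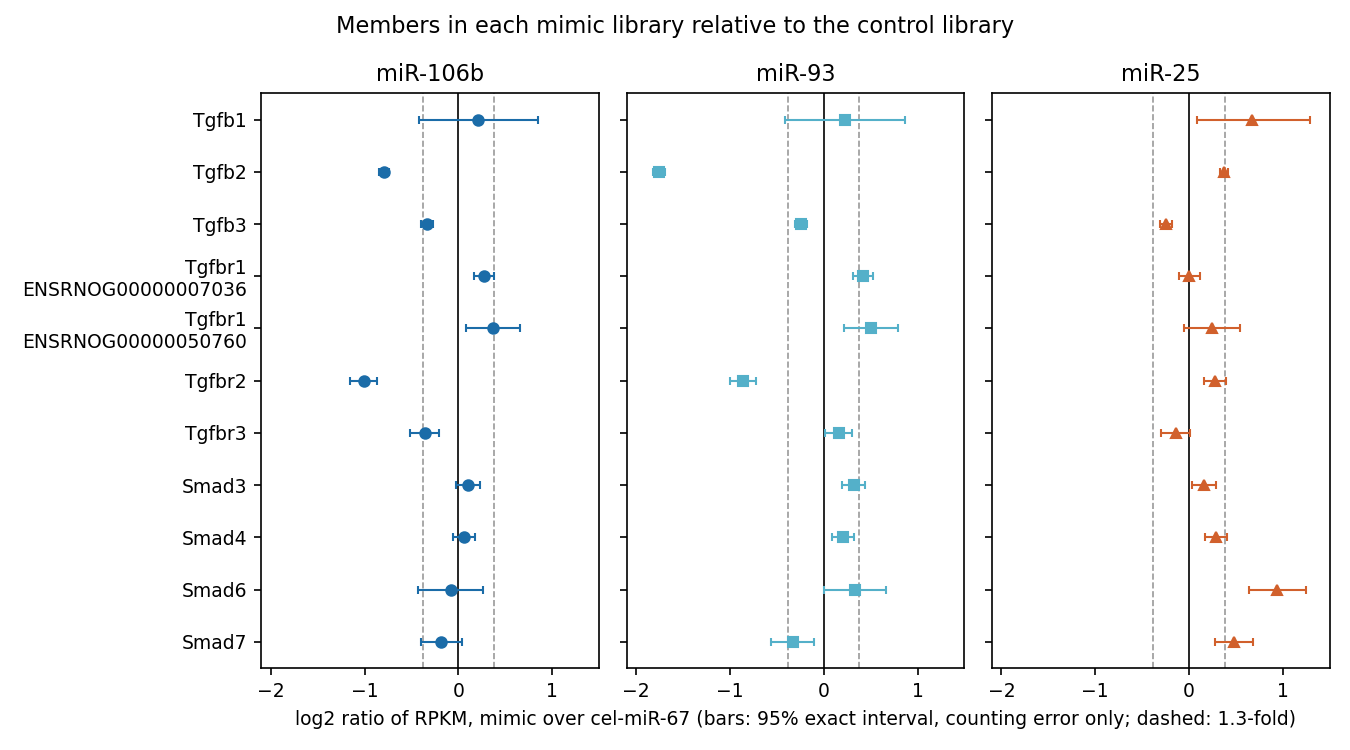
Log2 ratio of RPKM of each row, mimic over cel-miR-67, in 1 panel for each mimic, with bars for the 95% exact interval (counting error only) and dashed lines at 1.3-fold. Tgfb2 and Tgfbr2 lie beyond the left line with miR-106b and miR-93, and Smad6 and Smad7 beyond the right line with miR-25.

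The Smads that carry the signal differed little. Smad3 (ENSRNOG00000008620), a Smad activated by TGFBR1, was at 8.25 RPKM in the miR-106b library, 9.60 with miR-93, 8.61 with miR-25 and 7.70 in the control. Smad4 (ENSRNOG00000051965), the partner common to TGF-beta and BMP signalling, was at 17.1, 18.9, 20.1 and 16.4. Both were lowest in the control and neither passed the cutoff with any mimic, the log2 ratios being 0.10, 0.32 and 0.16 for Smad3 and 0.06, 0.20 and 0.29 for Smad4. Smad3 per Smad4 stayed between 0.429 and 0.508 over the 4 libraries.

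The inhibitory Smads were highest with miR-25. Smad7 (ENSRNOG00000018359), which brings ubiquitin ligases to TGFBR1, was at 2.94 RPKM in the miR-106b library, 2.65 with miR-93, 4.65 with miR-25 and 3.34 in the control, from 376, 311, 544 and 325 reads. The miR-25 library lay above the control and the other mimics below it. The log2 ratio was 0.48 with miR-25 (0.28 to 0.68), called higher, while the values of -0.18 (-0.40 to 0.04) for miR-106b and -0.33 (-0.56 to -0.10) for miR-93 were not called.

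Smad6 (ENSRNOG00000009173), which acts mainly on BMP signalling, was at 11.8, 15.8, 24.1 and 12.5 RPKM in the same order. Its level with miR-25 was 1.92-fold the control (log2 ratio 0.94, 0.64 to 1.25), while the ratios were -0.08 (-0.43 to 0.26) with miR-106b and 0.33 (0.00 to 0.66) with miR-93. The intervals assume 161, 197, 300 and 130 reads and a gene model of 457 bases, the smallest whole numbers that give these RPKM values. A longer model with proportionally more reads would give the same values and narrower intervals.

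Relative to Smad3, the inhibitory Smads were again highest with miR-25. Smad7 per Smad3 was 0.540 (0.487 to 0.598) there and 0.434 (0.381 to 0.493) in the control, against 0.357 (0.317 to 0.401) in the miR-106b library and 0.276 (0.243 to 0.313) in that of miR-93. Smad6 per Smad3 was 2.80 (2.46 to 3.18) with miR-25 and between 1.44 and 1.64 in the other 3 libraries, whose intervals overlapped. In the miR-25 library the summed smooth muscle and pericyte markers stood at 2.63 times the control and the summed fibroblast markers at 0.411 times. Cspg4 (log2 ratio -0.82), Lum (0.87) and Thy1 (0.26) went against the sum of their list, and the other markers went with it. The part of these cells in the Smad6 and Smad7 values was not tested.

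**Figure D3:**
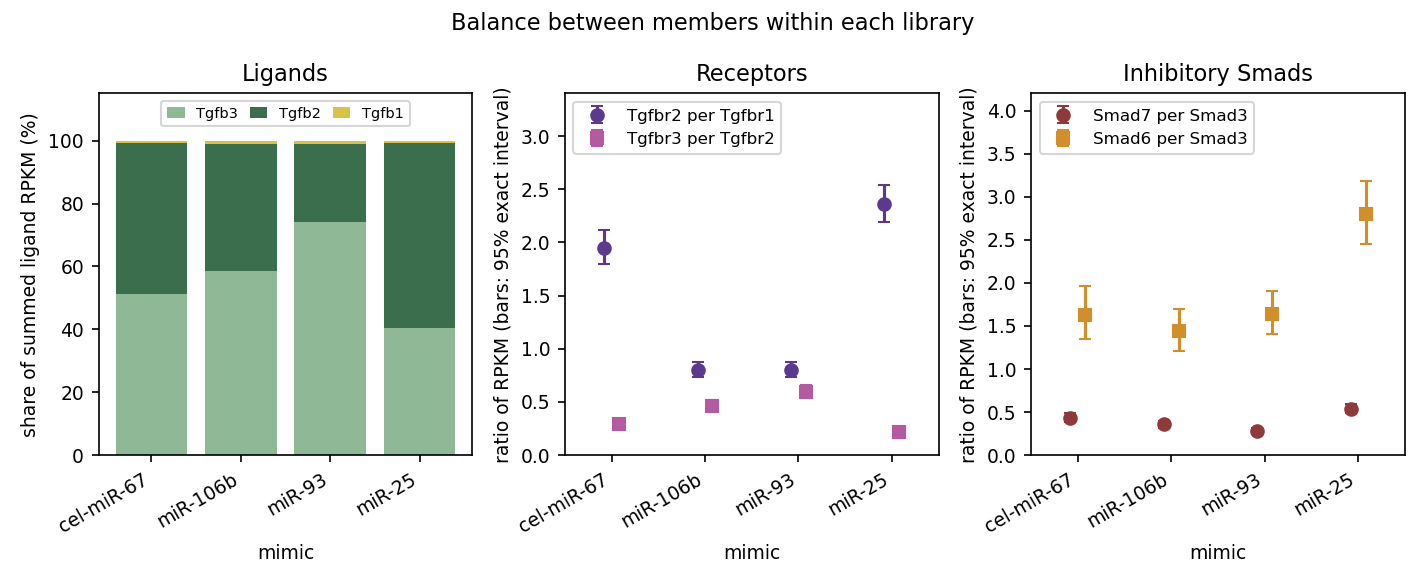
Shares of the summed ligand RPKM (left, %), ratios between receptors (middle; Tgfbr1 is the row ENSRNOG00000007036) and ratios of inhibitory Smads to Smad3 (right) within each library, with bars for the 95% exact interval. Tgfbr2 per Tgfbr1 is near 0.80 with miR-106b and miR-93 and at 1.95 and 2.36 in the other 2 libraries, and Smad6 per Smad3 is at 2.80 with miR-25.

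The mimics were also compared with each other, which does not use the control library. Between miR-93 and miR-106b, which share the seed, 2 of 10 tested rows were higher with miR-93, against 7.3% of all tested genes, and 1 was lower, against 8.21%. The lower one was Tgfb2, at 51.4% of its level with miR-106b (log2 ratio -0.96, -1.03 to -0.89). The higher ones were Tgfbr3 (0.52, 0.37 to 0.66) and Smad6 (0.41, 0.11 to 0.72). For Tgfbr2 the log2 ratio of the seed-sharing mimics was 0.15, with an interval from just below 0 to 0.30, which reaches a difference of 0.30 between them.

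Between miR-25 and miR-106b, 4 of 10 tested rows were higher with miR-25, against 22.1% of all tested genes, and 0 lower, against 23%. Between miR-25 and miR-93, 4 were higher, again against 22.1%, and 1 was lower, again against 23%. The rows higher with miR-25 were Tgfb2, Tgfbr2, Smad6 and Smad7 in both comparisons. Tgfb2 was 2.24-fold the level with miR-106b and 4.36-fold the level with miR-93, the widest gap of any member. Tgfbr2 was 2.44-fold and 2.20-fold higher, Smad6 2.03-fold and 1.53-fold, and Smad7 1.58-fold and 1.75-fold. The row lower with miR-25 than with miR-93 was Tgfbr1 (ENSRNOG00000007036), with a log2 ratio of -0.42 (-0.51 to -0.32).

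Tgfb2 and Tgfbr2 were ordered alike over the libraries in that both were highest with miR-25, next in the control and lower with the seed-sharing mimics. Smad7 was ordered in this way too, but was not called lower with either seed-sharing mimic. The 250 bases upstream of the RefSeq starts of Tgfb2 and Tgfbr2, which were called lower with both, are shown 5′ to 3′ on the gene's strand. Capitals mark matches, on either strand, to the E-box CACGTG, the GC box GGGCGG and the CCAAT box CCAAT.
Tgfb2, GRCr8, minus strand, chr13:100792686-100792935: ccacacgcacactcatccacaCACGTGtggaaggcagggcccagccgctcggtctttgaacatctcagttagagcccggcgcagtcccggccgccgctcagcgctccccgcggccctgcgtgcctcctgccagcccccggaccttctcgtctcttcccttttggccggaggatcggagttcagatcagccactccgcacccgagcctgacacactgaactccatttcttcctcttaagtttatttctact
Tgfbr2, GRCr8, minus strand, chr8:124761470-124761719: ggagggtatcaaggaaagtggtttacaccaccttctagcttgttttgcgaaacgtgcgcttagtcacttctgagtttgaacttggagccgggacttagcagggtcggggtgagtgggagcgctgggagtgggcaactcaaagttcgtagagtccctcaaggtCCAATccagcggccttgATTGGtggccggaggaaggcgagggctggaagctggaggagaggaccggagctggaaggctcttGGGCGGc
The Tgfb2 window held 1 E-box match, which 5.59% of 33469 rat promoter windows of the same length hold, and no GC or CCAAT box. The Tgfbr2 window held 2 CCAAT matches, on opposite strands, and 1 GC box, found in 34.0% and 30.5% of all windows. Neither window held a match to the Smad palindrome GTCTAGAC, the Smad box CAGACA, the CRE TGACGTCA or the AP-1 site TGACTCA or TGAGTCA, so no motif of those searched was shared by the pair. Windows were found for 9 of the 10 members, all but Smad6, and none of the 9 held a Smad palindrome or Smad box, which 0.173% and 17.2% of all windows hold.

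Other transcripts were ranked by their 3 log2 ratios to the control, among 4045 genes above 10 RPKM in all libraries. This number includes some of the members, which were left out of the ranking. The transcripts most like Tgfbr2 were Tnfrsf11b (Euclidean distance 0.249), Ppp6c (0.258) and Jak1 (0.266). Ppp6c, a phosphatase subunit, had log2 ratios of -0.78, -0.79 and 0.19 for the mimics in the same order. The transcripts most like Smad7 were Capza1 (0.0234), Wbp4 (0.0639) and Cystm1 (0.0658). Capza1, an actin capping protein, had log2 ratios of -0.16, -0.32 and 0.49.

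The other genes of the pathway were followed in 6 lists of 68 genes in all, from latent ligand in the matrix to induced genes. Genes named from these lists beyond the 2 with the largest difference for a mimic were chosen after their values were seen. The list of latent TGF-beta storage and activation had 12 tested genes. Of these, 6 were lower and 0 higher with miR-106b, 8 lower and 1 higher with miR-93, and 5 lower and 3 higher with miR-25, with median log2 ratios of -0.34, -0.44 and -0.13. Over all tested genes the shares called lower were 12.7%, 15.6% and 22.6% for the mimics in the same order, and those called higher 11.9%, 15.1% and 19.3%. The 3 higher with miR-25 were Ltbp1, Ltbp2 and Lrrc32, and the 5 lower were Ltbp4, Fbn1, Emilin1, Itgav and Itgb8. The 1 higher with miR-93 was Lrrc32 (log2 ratio 0.41, -0.04 to 0.87), from 109 reads against 68 in the control. That interval includes 0. Ltbp2, a matrix protein of the latent TGF-beta binding protein family, was at 4.54 RPKM in the miR-106b library, 4.46 with miR-93, 15.4 with miR-25 and 9.77 in the control. It was thus ordered like Tgfb2 and Tgfbr2, with the seed-sharing mimics low and miR-25 above the control. Thbs1, thrombospondin-1, which can activate latent TGF-beta, was at 176, 113, 217 and 232 RPKM, lower with miR-93 (log2 ratio -1.03) and miR-106b (-0.39). Itgb8, the beta chain of an integrin that activates latent TGF-beta, was lower with all 3 mimics at 1.74, 2.53 and 1.77 RPKM against 3.33. With miR-25 the largest differences were those of Fbn1, the microfibril protein fibrillin-1 (-1.15), and of Lrrc32, which tethers latent TGF-beta to the cell surface (0.92).

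Of 13 receptor-level partners and regulators, 3 were lower and 0 higher with miR-106b, 4 lower and 1 higher with miR-93, and 3 lower and 0 higher with miR-25. The 3 lower with miR-25 are a share near the 22.6% of all tested genes, and those lower with miR-106b and miR-93 are to be read beside 12.7% and 15.6%. Those lower with miR-106b were Dab2, Acvrl1 and Zfyve9, to which Nedd4l was added with miR-93. Dab2, an adaptor linking receptors to Smads and to endocytosis, was lower with all 3 mimics, at 28.9, 23.7 and 24.2 RPKM against 42.7. Acvrl1, a receptor kinase that signals to Smad1 and Smad5, was likewise lower, at 1.88, 1.90 and 1.60 against 2.55. Bambi, a pseudoreceptor that blocks signalling, was higher with miR-93 (27.6 against 16.3 RPKM, log2 ratio 0.76) and lower with miR-25 (12.1 RPKM, -0.43). Of the remaining Smads, Smad9 was higher with miR-25 (5.48 against 3.00 RPKM, log2 ratio 0.87) and Smad1 lower with miR-93 (7.11 against 9.31 RPKM, -0.39), while Smad2 and Smad5 were not called with any mimic.

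Among 11 tested nuclear partners and repressors of Smads, 1 was higher and 0 lower with miR-106b, 2 higher and 1 lower with miR-93, and 1 higher and 2 lower with miR-25. Over all tested genes the shares higher and lower were 11.9% and 12.7% with miR-106b and 15.1% and 15.6% with miR-93. With miR-25 they were 19.3% and 22.6%. Counts out of 11 genes are too small to be read as high or low against these shares. Skil, a repressor of Smad-driven transcription that is also a feedback target of the pathway, was at 18.4, 16.5, 35.3 and 20.5 RPKM and so was higher with miR-25 alone. Its log2 ratio there was 0.78, beside the 0.48 of Smad7. Not all genes that restrain the pathway were higher with miR-25, since Bambi was lower there (log2 ratio -0.43). Tgif2, a related repressor, was higher with miR-106b (0.39) and miR-93 (0.44), and Tgif1 lower with miR-93 (-0.43) and miR-25 (-0.85). Ski was the other gene higher with miR-93 (0.39), and Zeb1 the other lower with miR-25 (-0.40). Of 5 genes of the TAK1 branch, which leads from the receptors to MAP kinases, Tab3 was higher with miR-106b (0.48) and Tab2 with miR-25 (0.50), and none was lower. With so few genes these counts cannot be read as high or low against the background of 11.9% and 19.3% higher.

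**Figure D4:**
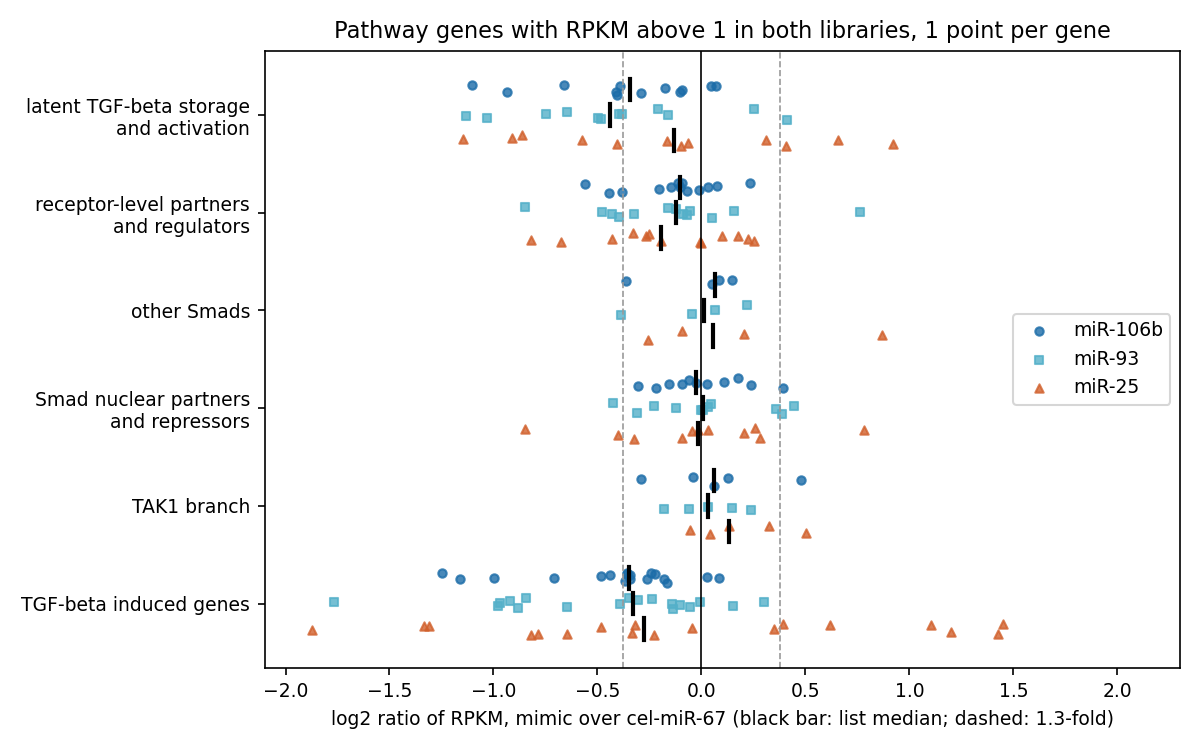
Log2 ratio of RPKM, mimic over cel-miR-67, for the tested genes of the 6 pathway lists, with 1 point for each gene and mimic, a black bar at the list median and dashed lines at 1.3-fold. The medians of the latent storage list and of the induced list lie left of 0 with each mimic, and those of the other 4 lists lie between -0.19 and 0.13.

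Among genes known to be induced by TGF-beta, each one called with a seed-sharing mimic was lower. Of 18 tested, 6 were lower and 0 higher with miR-106b, against 12.7% and 11.9% of all genes. With miR-93, 8 were lower and 0 higher, against 15.6% and 15.1%, and with miR-25, 7 were lower and 6 higher, against 22.6% and 19.3%. The list medians were -0.35, -0.33 and -0.27 on the log2 scale. This list was chosen with earlier results of these data known, so its counts are a description and not an independent check.

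Tgfbi, a matrix protein named for its induction by TGF-beta, was at 5.58 RPKM in the miR-106b library, 3.89 with miR-93, 9.48 with miR-25 and 13.3 in the control, with log2 ratios of -1.25, -1.77 and -0.48. It was lower with all 3 mimics and lowest with miR-93, as was Tnc, the matrix protein tenascin-C, with log2 ratios of -0.37, -0.98 and -0.82, the first of them within the cutoff. Postn, the fibroblast matrix protein periostin, was at 47.8, 68.4 and 43.1 RPKM with the mimics against 107. With miR-25 the largest differences went opposite ways. Col1a2, a chain of collagen type I, was at 77.6 RPKM against 284 in the control (-1.87), and Tagln, a smooth muscle cytoskeletal protein, at 1306 against 478 (1.45).

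Of the 18 tested genes, 5 are also markers of fibroblasts (Col1a1, Col1a2, Col3a1, Postn) or of smooth muscle (Acta2), whose summed levels relative to the control are given above. Of the 10 fibroblast markers, 5 were lower and 0 higher with miR-106b, 5 lower and 0 higher with miR-93, and 7 lower and 1 higher with miR-25. Their median log2 ratios were -0.37, -0.29 and -0.71, beside -0.35, -0.33 and -0.27 for the induced list. Col1a1, Col1a2, Col3a1 and Postn are in both lists, so these medians are not independent. The fibroblast markers outside the induced list ranged from -1.35 (Dcn) to -0.06 (Ddr2) with miR-106b. With miR-93 they ranged from -1.47 (Dcn) to -0.0034 (Tcf21). Without the 5 shared genes, a choice made after seeing the data, 5 of 13 induced genes were lower and 0 higher with miR-106b. With miR-93 these counts were 7 and 0, and with miR-25 they were 3 and 5. Over all tested genes the shares lower and higher were 12.7% and 11.9% with miR-106b and 15.6% and 15.1% with miR-93. With miR-25 they were 22.6% and 19.3%. The median log2 ratios of the 13 induced genes were -0.36, -0.39 and -0.045. The genes still lower with miR-25 were Tgfbi, Snai2 and Tnc, and those still higher were Tagln, Cdkn2b, Junb, Bhlhe40 and Lox. Tagln is itself a smooth muscle protein, so the 13 genes are not free of genes tied to a cell type. The part of fibroblasts and smooth muscle cells in these differences was not tested.

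**Figure D5:**
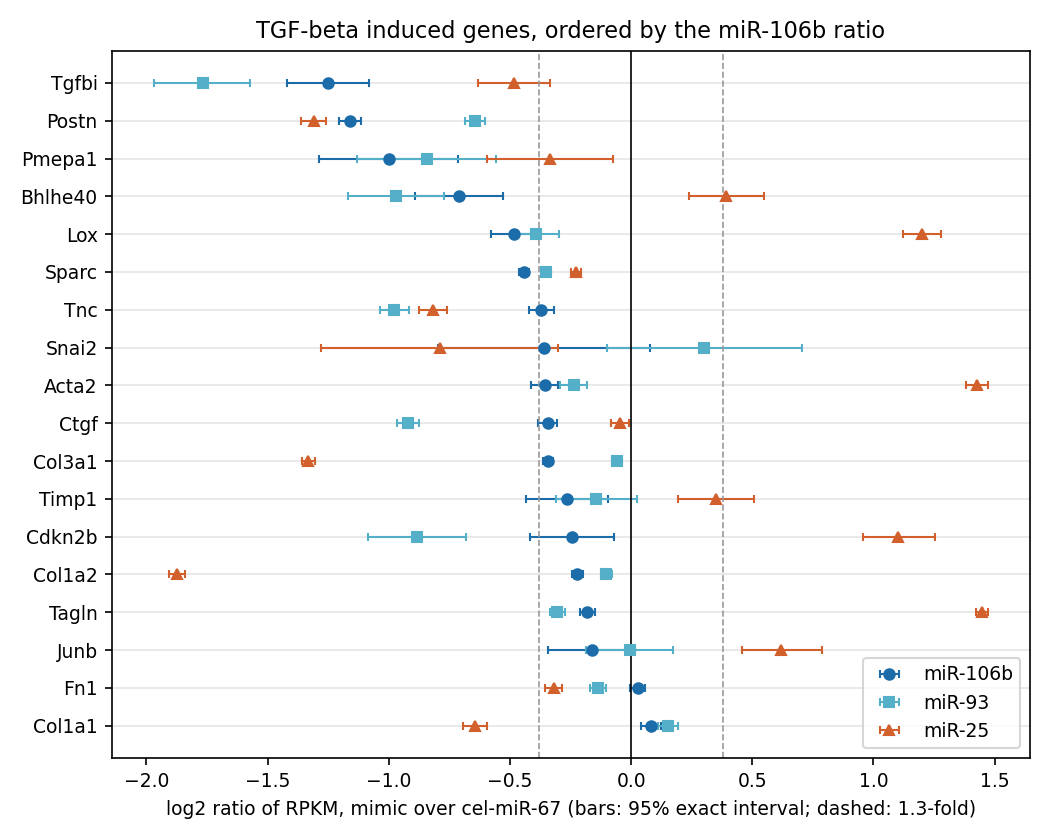
Log2 ratio of RPKM, mimic over cel-miR-67, of the 18 tested genes of the TGF-beta induced list, ordered by the miR-106b ratio, with bars for the 95% exact interval and dashed lines at 1.3-fold. No point of miR-106b or miR-93 passes the right line, while 6 miR-25 points do and 7 pass the left line.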

How the data were processed

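Total RNA of 4 cultures was sequenced, with 1 library per mimic, as 50-base single reads. Per the labels and methods, the authors trimmed the reads (Cutadapt), aligned them to Rnor 6.0 with STAR 2.7 and converted counts to the deposited RPKM values in edgeR (rpkm function). The counting program and its strand setting are not given in the sources used here. The table of the whole series and the files of single samples hold identical values. Fold changes are ratios of RPKM without a pseudocount, for genes above 1.0 RPKM in both libraries, at a cutoff of 1.3-fold. Whole reads were recovered from the RPKM steps for all 15731 genes, as the smallest reads that whole gene lengths allow, and the recovery was tested on simulated data. With 1 library per group no test was run. Genes named by a fixed rule were the members, the 2 tested genes with the largest log2 ratio in either direction per pathway list and mimic, and the 3 nearest neighbours of Tgfbr2 and of Smad7. Further genes of the pathway and marker lists were named after their values were seen. A gene of the induced list is not reported here and was left out of its counts. The members and lists were chosen with earlier results of these data known. Sequences are from RefSeq tables (GRCr8), used only for sequences and names. Seed matches in 3′ untranslated regions were not analysed here. Alternatives were RPKM cutoffs of 2.0 or none, 1.5-fold and 2-fold cutoffs, an added 0.1 or 1 RPKM, log2 ratios centred on the median tested gene, and scaling to the reads on listed genes. The software was Python 3.11.15 with pandas 2.3.3, scipy 1.17.1, numpy 2.4.6 and, for figures, matplotlib 3.10.9.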

Additional observations from a re-analysis of the deposited data

How the results depend on the processing

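With 1 library per mimic, no result could be set against a spread between cultures, and low reads limit Tgfb1 most. No paired analysis was possible because each group holds 1 library and no test was run. Of 132 log2 ratios of members recomputed under the alternatives, 117 stayed within the counting interval of the main value, and 15 moved, all with scaling to the reads on listed genes. Only 1 changed sign, that of Tgfbr3 with miR-25, from -0.14 to 0.0052 under that scaling, and it was called under neither. That scaling raises the median log2 ratio of all genes by 0.083 for miR-106b, 0.146 for miR-93 and 0.148 for miR-25, and relative to this shift the members keep the ratios given above. Without taking out the shift, 1, 4 and 6 rows are called higher with the mimics in that order, in place of 0, 2 and 2. At 1.5-fold, 0 rows are higher with miR-93 and 1 with miR-25. At 2-fold, 0 are higher with either of them, and 1 row is lower with miR-106b (Tgfbr2) and 1 with miR-93 (Tgfb2). With the RPKM cutoff left out, or with centring, 3 rows are higher with miR-25, the added row being Tgfb1 or Tgfb2. Of 63 tested pathway genes, 2, 4 and 12 were higher with the mimics in the same order (of all tested genes 11.9%, 15.1% and 19.3%), and 15, 22 and 17 were lower (12.7%, 15.6% and 22.6%). At 1.5-fold the counts higher are 0, 1 and 9 and those lower 7, 12 and 12. Shares over all tested genes were computed for the main setting only. The counts of members and pathway genes under the alternatives therefore have no background beside them, and cannot be called high or low. Leaving out the marker genes moved the induced genes lower with miR-25 from 7 to 3.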
